A study of Homo sapiens with 18 samples.

Results

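The 10 genes described here write DNA methylation, copy it or take it off: DNMT1, DNMT3A, DNMT3B, DNMT3L, UHRF1, UHRF2, TET1, TET2, TET3 and HELLS. They were chosen by name and matched through their Ensembl identifiers, 10 genes of 58051 in the deposited tables. RNA was sequenced from the human lung cancer cell line NCI-H460 (established from a large-cell carcinoma) as 3 populations. Resistant 1 and resistant 2 withstand the pairing of all-trans retinoic acid (ATRA) and decitabine, and the parental cells are what they are set against. All carry a wild-type genotype label. Each population received 2 µM ATRA with decitabine, labelled as 50 µM (ATRA+DAC), or the solvent DMSO at 0.7% v/v, from 24 h after seeding until harvest at 72 h. There were 3 biological replicates in each of the 6 groups, 18 libraries in all. Each resistant population is 1 population, so a difference from parental cells is a property of that population.

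DNA methylation in human cells sits mainly on the cytosine of CpG pairs. DNMT1 copies the mark onto the new strand after replication, and UHRF1 brings it to hemimethylated sites; HELLS, a chromatin remodeller, opens packed chromatin to the enzymes. DNMT3A and DNMT3B place new marks, with DNMT3L as a cofactor that lacks activity of its own and is known mainly from germ cells and early embryos. UHRF2 is a relative of UHRF1, and the TET dioxygenases oxidise methylcytosine, which leads to its loss. Decitabine, a nucleoside drug, enters DNA during replication and holds DNMT proteins on it, which transcript levels do not show. ATRA activates retinoic acid receptors.

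The genes lie at these places of GRCh38 (GENCODE 29), and each count is over a gene's exons. The maintenance genes are DNMT1 (ENSG00000130816, chr19:10133345-10231286), UHRF1 (ENSG00000276043, chr19:4903080-4962154) and HELLS (ENSG00000119969, chr10:94501434-94613905), with UHRF2 (ENSG00000147854) at chr9:6413151-6507054. The de novo genes are DNMT3A (ENSG00000119772, chr2:25227855-25342590), DNMT3B (ENSG00000088305, chr20:32762385-32809356) and DNMT3L (ENSG00000142182, chr21:44246339-44262216). The TET genes are TET1 (ENSG00000138336, chr10:68560656-68694482), TET2 (ENSG00000168769, chr4:105145875-105279816) and TET3 (ENSG00000187605, chr2:73986404-74108176).

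ATRA+DAC libraries held 114.1 to 176.9 M recovered reads, counting restored genes alone, and DMSO libraries held 116.9 to 140.9 M. Of the epithelial markers, the keratins KRT8, KRT18 and KRT19 were high with DMSO (KRT8 63730 to 143822 normalized counts per library). KRT7 had 452 to 1379 and EPCAM 2.73 to 103, and the epithelial adhesion gene CDH1 had at most 2.17. Of 5 immune markers, CD14 was the highest, at 20.6 to 392 normalized counts per DMSO library, and the leukocyte gene PTPRC had at most 23.9. Of 4 endothelial markers, KDR was the highest, at 11.9 to 238, and CDH5 had at most 6.16. Of 6 fibroblast markers, COL3A1 was the highest, at 23.2 to 7132, and COL1A2 had at most 6.51. These ranges are of DMSO libraries. In parental cells with ATRA+DAC, CDH1 had 1387 to 1416 normalized counts, EPCAM 899 to 1105.5 and CDH5 397 to 629. These genes were lower in the treated resistant libraries.

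Of the 9 members with a RefSeq promoter window, 3 held an E2F-type motif, the class of site through which E2F factors act on S-phase genes. The windows span 250 bases before to 50 after a transcript start (RefSeq, GRCh38.p14), and the motifs searched on both strands were TTTCCCGC, TTTGGCGC, TTTCGCGC and TTTGCCGC. Among all 27305 genes with a window, 3.99% held at least 1 such motif. A gene can have several windows: the members had 20, of which 4 held a motif, beside 3.3% of all 35116 windows. The 3 stretches below were picked by the match: each is from the first listed window with a motif, for each member that had one. Each covers the 200 bases before the start, in lower case with the motif in capitals, 5′ to 3′ on the gene's strand. DNMT1 is chr19:10194948-10195153 on the minus strand, running 6 bases past the start to the end of the motif that crosses it; UHRF1 is chr19:4909301-4909500 and HELLS is chr10:94545588-94545787, both on the plus strand.
DNMT1: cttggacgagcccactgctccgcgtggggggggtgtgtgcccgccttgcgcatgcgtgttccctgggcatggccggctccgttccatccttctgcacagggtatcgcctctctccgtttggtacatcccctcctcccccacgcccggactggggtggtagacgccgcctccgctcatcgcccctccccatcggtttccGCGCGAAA
UHRF1: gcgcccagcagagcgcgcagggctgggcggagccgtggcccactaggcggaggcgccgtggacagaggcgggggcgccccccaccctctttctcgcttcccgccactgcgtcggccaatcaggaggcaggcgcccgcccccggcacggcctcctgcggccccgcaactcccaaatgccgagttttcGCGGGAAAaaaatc
HELLS: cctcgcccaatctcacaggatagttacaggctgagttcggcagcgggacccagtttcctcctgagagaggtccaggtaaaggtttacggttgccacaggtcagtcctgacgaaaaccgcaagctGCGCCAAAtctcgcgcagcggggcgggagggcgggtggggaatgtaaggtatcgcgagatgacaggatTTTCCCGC
HELLS held 2 motifs, at 76 and 8 bases before the start, and UHRF1 held 1 at 14 bases before it. A further UHRF1 start had TTTCGCGC at 160 bases before it. The windows of DNMT3A, DNMT3B, UHRF2, TET1, TET2 and TET3 held none. A match describes the letters of the window and shows neither binding nor control.

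In parental cells with DMSO, DNMT1 was the most abundant member per length of annotated exon, at 24.8 ± 2.32 CPM per kb (reads scaled to library total, CPM, divided by kilobases of exon; SD, n = 3 throughout). The length unites the exons of all annotated transcripts of a gene, and the order below depends on it. UHRF1 (7.96 ± 2.55), UHRF2 (6.71 ± 0.669) and HELLS (6.01 ± 0.175) came next, and their order among themselves was not tested. TET3 followed at 4.02 ± 0.0972 CPM per kb. DNMT3B (2.04 ± 0.269), TET2 (1.88 ± 0.190), DNMT3A (1.68 ± 0.153) and TET1 (1.61 ± 0.179) lay close together, and DNMT3L had no read. Without the scaling, DNMT3A (20.2 ± 1.84 CPM) lay above DNMT3B (9.47 ± 1.24 CPM). The maintenance genes thus stood above DNMT3A and DNMT3B in this group.

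**Figure D1:**
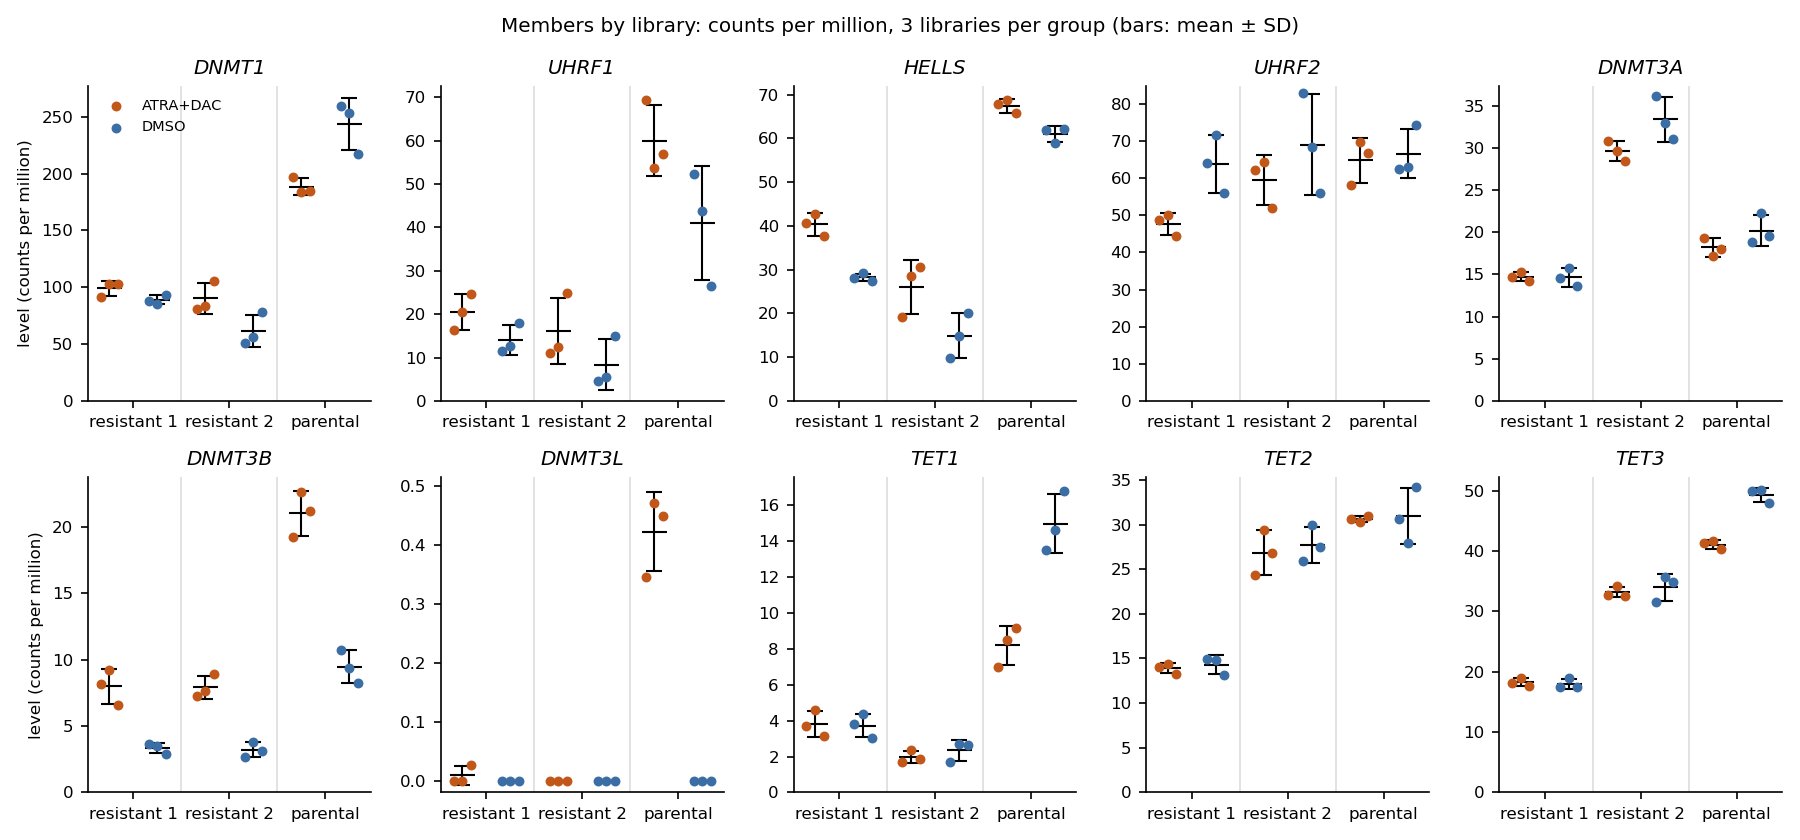
Level of each member in CPM (y axes, linear, each with its own scale) in the 3 libraries of each group (points), with the mean and SD (black); populations run along the x axis, with ATRA+DAC left of DMSO in each. DNMT1, UHRF1, HELLS, DNMT3B, TET1 and TET3 were lower in both resistant populations than in parental cells, and DNMT3L had more than 5 reads per library only in parental cells given ATRA+DAC.

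With DMSO, most members were lower in the resistant populations than in parental cells. In resistant 1, 8 of the 9 members tested were lower than in parental cells and 0 were higher, where 26.6% of all genes tested were called lower and 29.3% higher, 55.9% in all (limma, Benjamini-Hochberg adjusted p under 0.05). In resistant 2, 6 were lower and 1, DNMT3A, was higher, where 29.8% and 32.1% of all genes were called in those directions, 61.9% in all. The members' median log2 difference was -1.42 in resistant 1 and -1.51 in resistant 2, beside 0.01 and 0.02 over all genes tested. DNMT3L, at 0 reads in all 9 DMSO libraries, was not tested.

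DNMT1 had 10106, 9886 and 10687 normalized counts in resistant 1 libraries and 5997, 6610 and 8968 in resistant 2 libraries, against 29198, 28378 and 24516 in parental libraries. All 6 resistant libraries lay below all parental libraries. DNMT1 was 2.67-fold lower in resistant 1 (log2 difference -1.42 ± 0.14 SE, limma adjusted p = 6.2e-06) and 3.85-fold lower in resistant 2 (-1.95 ± 0.14, adjusted p = 3.5e-07).

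UHRF1, which reads hemimethylated CpG, had 1320, 1457 and 2064 normalized counts in resistant 1 and 526, 643 and 1732 in resistant 2, against 5892, 4921 and 3002 in parental cells. Its libraries spread more widely than those of DNMT1; neither resistant population overlapped parental cells, while the resistant populations overlapped each other. The log2 differences were -1.48 ± 0.40 in resistant 1 and -2.40 ± 0.40 in resistant 2 (adjusted p = 0.0080 and 0.00029). HELLS had 3230, 3368 and 3152 normalized counts in resistant 1 and 1141, 1749 and 2305 in resistant 2, against 6949, 6618 and 7022 in parental cells. Its decrease was 2.11-fold in resistant 1 and 4.12-fold in resistant 2 (adjusted p = 0.00073 and 4.4e-06), with no overlap between groups. HELLS overlaps TBC1D12 on the same strand, a gene at 30.003% to 157% of the HELLS reads over the 18 libraries, and how reads in shared exons were assigned is not given in the sources used here. S1PR2, which overlaps DNMT1 on the same strand, had 0.806% to 4.32% of the DNMT1 reads.

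Proliferation markers moved with these members. Of 20 markers, 20 were lower in resistant 1 (median log2 difference -1.38) and 19 in resistant 2 (-2.19), and none was higher. The summed level of the 18 markers with a value in every library was 1841 to 1985 CPM in resistant 1 and 937 to 1620 CPM in resistant 2, against 4316 to 5150 CPM in parental cells, all with DMSO. Their part in the result was not tested. In bulk RNA, fewer cells in cycle and less RNA per cell cannot be told apart.

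DNMT3A and DNMT3B, the enzymes that place new marks, went different ways in resistant 2. DNMT3B had 421, 402 and 333 normalized counts in resistant 1 and 312, 447 and 364 in resistant 2, against 1207, 1055 and 931 in parental cells, and both resistant populations were lower by a similar factor (2.76-fold and 2.85-fold, adjusted p = 2.6e-05 and 1.5e-05). DNMT3A had 1667, 1827 and 1564 normalized counts in resistant 1 and 4244, 3873 and 3569 in resistant 2, against 2115, 2500 and 2201 in parental cells. It was lower in every resistant 1 library and higher in every resistant 2 library than in any parental library. The log2 difference was -0.43 ± 0.11 in resistant 1 (adjusted p = 0.0062) and 0.78 ± 0.11 in resistant 2, a 1.71-fold higher level (adjusted p = 8.9e-05). DNMT3B thus made up 37.3% of the length-scaled sum of DNMT3A and DNMT3B in resistant 1 and 19.96% in resistant 2, against 54.9% in parental cells.

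The TET genes differed between the resistant populations. TET1 had 438, 503 and 347 normalized counts in resistant 1 and 198, 317 and 306 in resistant 2, against 1522, 1640 and 1895 in parental cells. It had the largest decrease of the members in each population, 3.95-fold in resistant 1 and 6.25-fold in resistant 2 (adjusted p = 1e-05 and 7.4e-07). TET2 had 1717, 1719 and 1505 normalized counts in resistant 1 and 3034, 3518 and 3165 in resistant 2, against 3448, 3139 and 3860 in parental cells. It was 2.11-fold lower in resistant 1 (adjusted p = 1e-05). In resistant 2 its libraries overlapped the parental ones (log2 difference -0.10 ± 0.11, adjusted p = 0.45). TET3 had 2013, 2186 and 2010 normalized counts in resistant 1 and 3693, 4204 and 4015 in resistant 2, against 5609, 5630 and 5413 in parental cells. Its decrease was 2.68-fold in resistant 1 and 1.40-fold in resistant 2 (adjusted p = 1.9e-07 and 0.00057), with every resistant library below the parental ones.

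UHRF2 differed from UHRF1. It had 7355, 8261 and 6410 normalized counts in resistant 1 and 9714, 8043 and 6435 in resistant 2, against 7031, 7067 and 8377 in parental cells. The groups overlapped, and neither difference passed the test (log2 -0.03 ± 0.15 and 0.09 ± 0.15, adjusted p = 0.87 and 0.63).

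**Figure D2:**
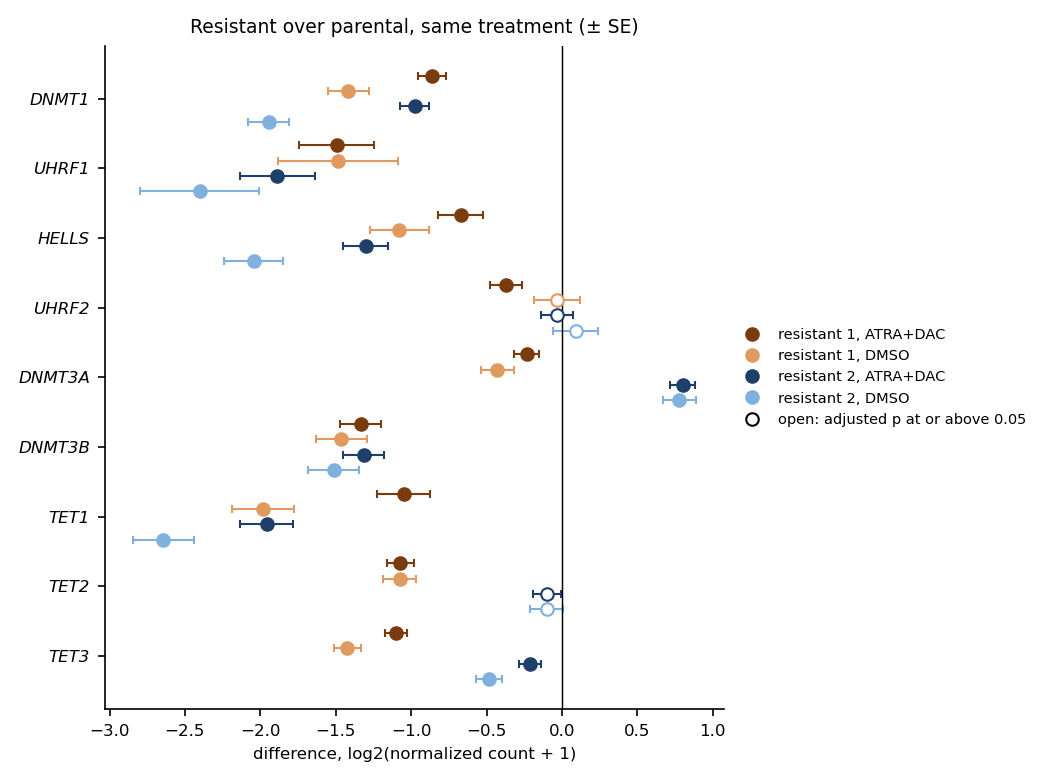
Log2 difference of each resistant population from parental cells under the same treatment (x axis, log2(normalized count + 1); bars, SE of the limma fit) for the 9 members other than DNMT3L (y axis); filled points had an adjusted p under 0.05. DNMT3A lies right of 0 in resistant 2 alone (0.80 with ATRA+DAC and 0.78 with DMSO), and TET2 and UHRF2 have open points near 0 in resistant 2.

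Set against each other with DMSO, the resistant populations differed in 6 of the 9 members, where 53.4% of all genes were called, 27.4% higher and 26.0% lower. DNMT1 (log2 0.53 ± 0.14, adjusted p = 0.0070), HELLS (0.97 ± 0.20, adjusted p = 0.0017) and TET1 (0.66 ± 0.20, adjusted p = 0.018) were higher in resistant 1 than in resistant 2. DNMT3A (-1.21 ± 0.11, adjusted p = 4.3e-06), TET2 (-0.98 ± 0.11, adjusted p = 2.4e-05) and TET3 (-0.94 ± 0.09, adjusted p = 5.4e-06) were lower. TET1 lost its call without resistant 1 replicate 1 or 2 or without resistant 2 replicate 1 (adjusted p = 0.052, 0.073 and 0.056). UHRF1 did not pass (0.92 ± 0.40, adjusted p = 0.073), but did without resistant 2 replicate 3, its highest library of that group (adjusted p = 0.00096). Here 13 of 20 proliferation markers were higher in resistant 1 and 1 was lower; their part in the result was not tested.

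Among the genes that work with the members, the partners of maintenance at the fork were mostly lower and the methyl-CpG readers mixed. The counts of this and the next 2 paragraphs stand beside 29.3% higher and 26.6% lower of all genes in resistant 1, and 32.1% higher and 29.8% lower in resistant 2. Of 7 fork partners tested with DMSO, 6 were lower in each resistant population and 0 higher (median log2 -0.93 in resistant 1 and -0.86 in resistant 2). PCNA is on this list and among the 20 proliferation markers, whose medians were -1.38 and -2.19. The part of proliferation in this result was not tested. CDCA7, which recruits HELLS to chromatin, averaged 5131 ± 419 normalized counts in resistant 1 and 2826 ± 578 in resistant 2, against 16655 ± 1266 in parental cells (log2 -1.70 and -2.58, adjusted p = 2e-06 and 5.4e-08). Its relative CDCA7L was 10286 ± 1115 in resistant 1 and 1447 ± 489 in resistant 2, against 12713 ± 981 in parental cells (log2 -3.19 in resistant 2, adjusted p = 1.7e-07). PCLAF, a PCNA-binding protein, was lower in both (log2 -1.69 and -2.01, adjusted p = 0.00083 and 0.00019).

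Of the 8 readers of methylated CpG, 3 were higher and 1 was lower in resistant 1, and 3 were higher and 1 was lower in resistant 2, the share called higher lying near that over all genes. The zinc-finger reader ZBTB4 averaged 12101 ± 454 normalized counts in resistant 1 and 14146 ± 978 in resistant 2, against 5366 ± 135 in parental cells (log2 1.17 and 1.40, adjusted p = 4.4e-07 and 7.9e-08). Of the 10 base-excision genes that follow TET oxidation, 2 were higher and 6 lower in resistant 1, and 1 was higher and 5 were lower in resistant 2. The glycosylase NEIL3 fell in both (log2 -1.999 and -2.54, adjusted p = 1.1e-07 and 1.3e-08). NEIL1 averaged 100.1 ± 9.91 normalized counts in resistant 1 and 612 ± 110 in resistant 2, against 239 ± 33.6 in parental cells, a log2 difference of -1.24 for resistant 1 and 1.35 for resistant 2 (adjusted p = 0.00018 and 7.7e-05). TDG, which removes oxidised methylcytosine, was lower in resistant 1 (log2 -1.04, adjusted p = 4.1e-06).

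The histone methyltransferases whose marks guide DNA methylation were listed with TRIM28, which is not itself such an enzyme. These genes were lower or uncalled, 8 of 9 lower in resistant 1 and 5 of 9 in resistant 2, with 0 higher (median log2 -0.68 and -0.46). SUV39H1 and SUV39H2, which write H3K9 methylation, fell in resistant 1 (log2 -1.33 and -0.87, adjusted p = 8.9e-05 and 9.3e-05), and likewise in resistant 2 (-1.57 and -1.59, adjusted p = 1.8e-05 and 6.2e-07). Genes listed for supply of the methyl donor S-adenosylmethionine were mixed. Of 9, 2 were higher and 4 lower in resistant 1, and 1 was higher and 4 lower in resistant 2. The remethylation enzyme MTR was lower in both (log2 -0.78 and -0.47, adjusted p = 6.2e-05 and 0.0018). Of 5 germ-cell genes with enough counts out of 12, 0 were higher and 3 lower in resistant 1 (the germ-cell RNA-binding gene DAZL log2 -4.06, adjusted p = 3.1e-06), and 2 were higher and 0 lower in resistant 2.

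With ATRA+DAC, resistant 1 had all 9 members other than DNMT3L below parental cells, where 33.0% of all genes tested were called lower and 34.3% higher, 67.3% in all. In resistant 2, 6 of these 9 were lower and DNMT3A was higher, where 35.5% and 37.3% of all genes were called, 72.8% in all. Their median log2 difference was -1.05 in resistant 1 and -0.98 in resistant 2, beside 0.01 and 0.03 over all genes. Of the proliferation markers, 15 of 18 were lower in resistant 1 and 13 of 18 in resistant 2, and none was higher, at a summed 2016 to 2246 CPM in resistant 1 and 1437 to 2178 CPM in resistant 2, against 3589 to 3722 CPM in parental cells. Their part in the result was not tested.

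DNMT1 had 13489, 14961 and 14595 normalized counts in treated resistant 1 and 11879, 12588 and 15483 in treated resistant 2, against 27148, 25422 and 25594 in treated parental cells. The populations still did not overlap with parental cells (1.82-fold and 1.97-fold lower, adjusted p = 7.3e-06 and 1.8e-06). UHRF1 was 2.82-fold lower in resistant 1 and 3.70-fold lower in resistant 2 (adjusted p = 0.00021 and 2.4e-05). HELLS had 6020, 6206 and 5351 normalized counts in treated resistant 1 and 2793, 4316 and 4476 in treated resistant 2, against 9346, 9529 and 9092 in treated parental cells (log2 -0.67 ± 0.15 and -1.30 ± 0.15, adjusted p = 0.0016 and 7.2e-06).

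DNMT3B had 1206, 1343 and 941 normalized counts in treated resistant 1 and 1059, 1151 and 1302 in treated resistant 2, against 2657, 3134 and 2940.5 in treated parental cells, again lower by similar factors (2.52-fold and 2.49-fold, adjusted p = 3.7e-06 and 2.9e-06). DNMT3A had 2170, 2227 and 2025 normalized counts in treated resistant 1 and 4521, 4463 and 4173 in treated resistant 2, against 2672, 2380 and 2501 in treated parental cells. The increase in resistant 2 (log2 0.80 ± 0.08, adjusted p = 3e-06) was of the size seen with DMSO. The decrease in resistant 1 was small (log2 -0.23 ± 0.08, adjusted p = 0.025) and did not pass without resistant 1 replicate 3 or without parental replicate 1 or 3 (adjusted p = 0.086, 0.10 and 0.070).

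TET1 had 544, 666 and 445 normalized counts in treated resistant 1 and 251, 353 and 273 in treated resistant 2, against 966, 1174 and 1265 in treated parental cells (2.07-fold and 3.89-fold lower, adjusted p = 0.00022 and 9.3e-07). TET2 was 2.10-fold lower in treated resistant 1 (adjusted p = 9.3e-07). In treated resistant 2 the difference was log2 -0.10 ± 0.09, which did not pass (adjusted p = 0.35). TET3 was 2.15-fold lower in resistant 1 (adjusted p = 1.3e-07) and 1.16-fold lower in resistant 2 (adjusted p = 0.022). That last call was lost without resistant 2 replicate 3 or without any of the parental replicates (adjusted p = 0.057 to 0.079). UHRF2 had 7218, 7258 and 6319 normalized counts in treated resistant 1 and 9098, 9709 and 7589 in treated resistant 2, against 8014, 9663 and 9232 in treated parental cells. It was lower in resistant 1 (log2 -0.37 ± 0.11, adjusted p = 0.0087) and overlapped in resistant 2 (-0.03 ± 0.11, adjusted p = 0.81).

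Between the treated resistant populations, HELLS (log2 0.63 ± 0.15, adjusted p = 0.0031) and TET1 (0.91 ± 0.18, adjusted p = 0.00083) were higher in resistant 1 than in resistant 2, and DNMT3A (-1.03 ± 0.08), TET2 (-0.97 ± 0.09), TET3 (-0.89 ± 0.07) and UHRF2 (-0.34 ± 0.11) were lower (adjusted p = 6.2e-07, 2.5e-06, 8.9e-07 and 0.016), where 58.6% of all genes were called, 30.0% higher and 28.6% lower. DNMT1, which was higher in resistant 1 with DMSO, did not pass here (log2 0.12 ± 0.09, adjusted p = 0.31). It passed, like UHRF1, without resistant 2 replicate 3 (adjusted p = 0.024 and 0.0014). UHRF2 did not pass without resistant 1 replicate 3 or resistant 2 replicate 2 (adjusted p = 0.065 and 0.067). Of 18 proliferation markers, 5 were higher in resistant 1 and 1 was lower; their part in the result was not tested.

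The next comparison set ATRA+DAC against DMSO within each population, on CPM scaled over all 18 libraries. DNMT3B rose in all 3 populations. It reached 8.16, 9.25 and 6.62 CPM with ATRA+DAC in resistant 1, against 3.67, 3.48 and 2.91 CPM with DMSO. In resistant 2 it reached 7.24, 7.64 and 8.89 CPM with ATRA+DAC, against 2.66, 3.80 and 3.16 CPM with DMSO. In parental cells it reached 19.3, 22.6 and 21.2 CPM with ATRA+DAC, against 10.7, 9.41 and 8.25 CPM with DMSO. Treated and solvent libraries did not overlap in any population. The increases were log2(CPM + 1) 1.04 ± 0.13, 1.09 ± 0.13 and 1.08 ± 0.13 in resistant 1, resistant 2 and parental cells (adjusted p = 2.2e-05, 2.6e-05 and 2.1e-06). The differences between responses were small, -0.04 ± 0.19 for resistant 1 minus parental and 0.01 ± 0.19 for resistant 2 minus parental, and did not pass the test (adjusted p = 0.90 and 0.97). DNMT3B averaged 8.01 ± 1.32 CPM in resistant 1 and 7.92 ± 0.864 CPM in resistant 2 with ATRA+DAC, against 9.47 ± 1.24 CPM in parental cells with DMSO; these groups were not tested against each other.

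DNMT3L had more than 5 reads per library in treated parental cells alone. With ATRA+DAC it had 0, 0 and 5 reads in resistant 1 libraries and 0, 0 and 0 in resistant 2 libraries, against 55, 74 and 80 reads in parental libraries; all 9 DMSO libraries had 0. The mean parental level with ATRA+DAC, 0.423 ± 0.0672 CPM, was at least 15.7-fold higher than with DMSO, taking 3 counts per library as the floor for a gene with no read. The level in treated resistant 2 was at least 17.4-fold lower than in treated parental cells. DNMT3L passed the filter on low counts only through the treated parental libraries, so it had to differ, and its calls are not counted as support (parental response adjusted p = 4.4e-11 by limma, 0.16 by DESeq2). The antisense gene AP001059.1, which overlaps it, had 2, 1 and 0 reads in treated parental cells and 0 elsewhere. Of 12 other germ-cell genes listed, 8, DAZL included, had no tested value. Of the 4 tested (HORMAD1, STK31, DDX4 and TDRD1), 3 were higher after treatment in resistant 1, 1 in resistant 2 and 3 in parental cells, and none was lower. Of all genes, 15.2%, 10.2% and 33.7% were called higher. DDX4 and TDRD1 did not pass the filter with DMSO and entered this test through treated libraries, so their calls are not counted as support either.

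The maintenance genes DNMT1, HELLS and UHRF1 were taken next. DNMT1 had 91.3, 103 and 103 CPM with ATRA+DAC in resistant 1, against 88.1, 85.6 and 93.2 CPM with DMSO. It had 81.1, 83.5 and 106 CPM with ATRA+DAC in resistant 2, against 51.2, 56.2 and 77.9 CPM with DMSO. It had 197, 184 and 185 CPM with ATRA+DAC in parental cells, against 260, 253 and 217 CPM with DMSO. Treated and solvent libraries did not overlap in resistant 2 or in parental cells. DNMT1 was higher after treatment in resistant 2 (log2 0.55 ± 0.13, adjusted p = 0.0056), lower in parental cells (-0.36 ± 0.13, adjusted p = 0.019) and not called in resistant 1 (0.15 ± 0.13, adjusted p = 0.43). With the 6 resistant 1 libraries fitted alone and paired by replicate number, where each treated library exceeded its same-numbered solvent library, DNMT1 was called higher (adjusted p = 0.044). The parental decrease was not called by edgeR (adjusted p = 0.062), nor without parental DMSO replicate 1 or 2 or parental ATRA+DAC replicate 2 or 3 (adjusted p = 0.051 to 0.070).

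HELLS had 40.7, 42.7 and 37.6 CPM with ATRA+DAC in resistant 1, against 28.1, 29.1 and 27.5 CPM with DMSO. The treated libraries lay above the solvent libraries, and the increase missed the threshold (log2 0.50 ± 0.18, adjusted p = 0.052) but passed with the replicate number as a block (adjusted p = 0.038). It passed under 10 of 26 alternatives in all, among them edgeR (adjusted p = 0.048) and DESeq2 (adjusted p = 0.025). In resistant 2 it had 19.1, 28.6 and 30.6 CPM with ATRA+DAC, against 9.74, 14.9 and 20.03 CPM with DMSO. It rose there (log2 0.80 ± 0.18, adjusted p = 0.0052), although the lowest treated library lay below the highest solvent library. In parental cells, at 67.7, 68.8 and 65.7 CPM with ATRA+DAC, against 61.8, 59.0 and 62.2 CPM with DMSO, it did not pass (0.14 ± 0.18, adjusted p = 0.52).

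UHRF1 did not pass in any population (log2 0.52 ± 0.36, 0.96 ± 0.36 and 0.58 ± 0.36 in resistant 1, resistant 2 and parental cells; adjusted p = 0.32, 0.079 and 0.16). Its libraries differed by replicate. In resistant 2 it had 11.05, 12.4 and 24.9 CPM with ATRA+DAC, against 4.49, 5.46 and 15.05 CPM with DMSO, so that replicate 3 was the highest under both treatments. When each resistant population was fitted alone with its replicates paired, UHRF1 was called higher in resistant 1 and in resistant 2 (adjusted p = 0.0019 and 0.011), as was HELLS in resistant 1 (adjusted p = 0.00056). UHRF1 in resistant 2 was also called without DMSO replicate 3 (adjusted p = 0.0036). UHRF2 fell in resistant 1, at 48.9, 50.0 and 44.4 CPM with ATRA+DAC against 64.1, 71.5 and 55.9 CPM with DMSO (log2 -0.41 ± 0.13, adjusted p = 0.028). It lost that call without any 1 of 5 of these 6 libraries (adjusted p = 0.052 to 0.13) and passed in neither resistant 2 (-0.20 ± 0.13, adjusted p = 0.35) nor parental cells (-0.04 ± 0.13, adjusted p = 0.82).

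TET1 fell with ATRA+DAC in parental cells, to 7.002, 8.48 and 9.14 CPM with ATRA+DAC, against 13.5, 14.6 and 16.8 CPM with DMSO (log2 -0.80 ± 0.16, adjusted p = 0.00024). In resistant 1 it had 3.68, 4.59 and 3.13 CPM with ATRA+DAC, against 3.81, 4.35 and 3.03 CPM with DMSO, and in resistant 2 1.72, 2.34 and 1.87 CPM with ATRA+DAC, against 1.69, 2.69 and 2.66 CPM with DMSO. Treated and solvent libraries overlapped in both resistant populations (adjusted p = 0.96 and 0.58). TET3 fell slightly in parental cells, to 41.1 ± 0.735 CPM with ATRA+DAC, against 49.4 ± 1.19 CPM with DMSO (log2 -0.26 ± 0.06, adjusted p = 0.0012). In resistant 1 and resistant 2 its response was not called (adjusted p = 0.87 and 0.82). TET2 (log2 -0.05 to -0.01) and DNMT3A (-0.16 to 0.01) did not pass in any population in this fit.

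Without DNMT3L, 1 of 9 members was higher and 1 lower in resistant 1, where 15.2% and 12.5% of all genes were called (27.7% in all), and 3 were higher and 0 lower in resistant 2, where 10.2% and 7.69% were called (17.9% in all). In parental cells 1 was higher and 3 were lower, where 33.7% and 32.3% were called (66.0% in all). Of 18 proliferation markers, 1 was higher in resistant 1 and 15 in resistant 2 with none lower, while 1 was higher and 9 were lower in parental cells; their part in the result was not tested. With the pairing of replicates inside each resistant population alone, 4 members were higher and 1 lower in resistant 1, and 4 were higher and 1, DNMT3A (adjusted p = 0.043), was lower in resistant 2. In these paired fits 23.8% of all genes were called higher and 24.9% lower in resistant 1 (48.7% in all), and 15.4% higher and 13.2% lower in resistant 2 (28.6% in all).

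**Figure D3:**
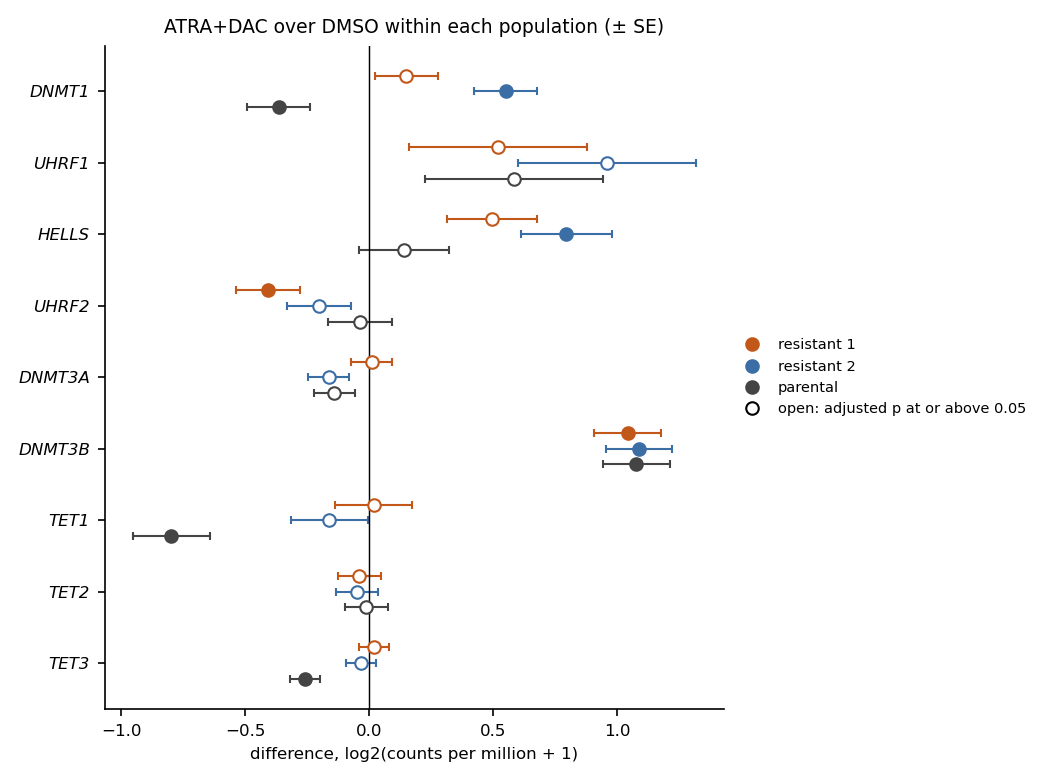
Log2 difference of ATRA+DAC over DMSO within each population (x axis, log2(CPM + 1); bars, SE of the limma fit) for the 9 members other than DNMT3L (y axis); filled points had an adjusted p under 0.05. DNMT3B lies near 1.04 to 1.09 in all 3 populations, whereas TET1 lies at -0.80 in parental cells and near 0 in the resistant populations.

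The responses themselves were then compared between populations. For resistant 1 minus parental, 3 of the 9 members other than DNMT3L had a called difference above 0 and 0 had one below it. Of all genes, 20.8% and 24.5% were called in those directions, 45.3% in all. These were TET1 (log2 0.82 ± 0.22, adjusted p = 0.0059), DNMT1 (0.51 ± 0.18, adjusted p = 0.028) and TET3 (0.28 ± 0.09, adjusted p = 0.013). For resistant 2 minus parental, 4 had a called difference above 0 and 0 had one below it, where 23.8% and 27.1% were called, 50.9% in all. These were DNMT1 (0.91 ± 0.18, adjusted p = 0.00045), HELLS (0.65 ± 0.26, adjusted p = 0.044), TET1 (0.64 ± 0.22, adjusted p = 0.023) and TET3 (0.22 ± 0.09, adjusted p = 0.036). The parental libraries enter both differences, so these are not independent of each other. TET1 and TET3 fell in parental cells (log2 -0.80 and -0.26), and their own responses were not called in either resistant population. The DNMT1 difference of resistant 2 and the TET1 difference of resistant 1 passed under each of 25 alternatives, and the others did not. HELLS missed the threshold under 19 of 25 alternatives (adjusted p up to 0.11), TET3 under 11 of 25 in resistant 2 (up to 0.32) and 2 of 25 in resistant 1 (up to 0.13), DNMT1 in resistant 1 under 10 of 25 (up to 0.071) and TET1 in resistant 2 under 7 of 25 (up to 0.14). Proliferation markers had a called difference above 0 in 6 of 18 cases for resistant 1 and in 16 of 18 for resistant 2, with none below it.

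Scaled by length of annotated exon, the make-up of the DNMT family shifted with treatment. DNMT1 made up 77.3% of the summed DNMT level with ATRA+DAC, against 82.4% with DMSO, in resistant 1, and 68.8% against 64.5% in resistant 2. In parental cells it made up 75.4% with ATRA+DAC, against 87.0% with DMSO. DNMT3B held 58.5% of the sum of DNMT3A and DNMT3B with ATRA+DAC, against 37.3% with DMSO, in resistant 1, and 40.9% against 19.96% in resistant 2. In parental cells it held 75.0% with ATRA+DAC, against 54.9% with DMSO. TET1 held 14.9% of the summed TET level with ATRA+DAC, against 14.7% with DMSO, in resistant 1, 4.68% against 5.36% in resistant 2 and 14.5% against 21.5% in parental cells. These shares are of group means, depend on the annotated exon lengths and were not tested.

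**Figure D4:**
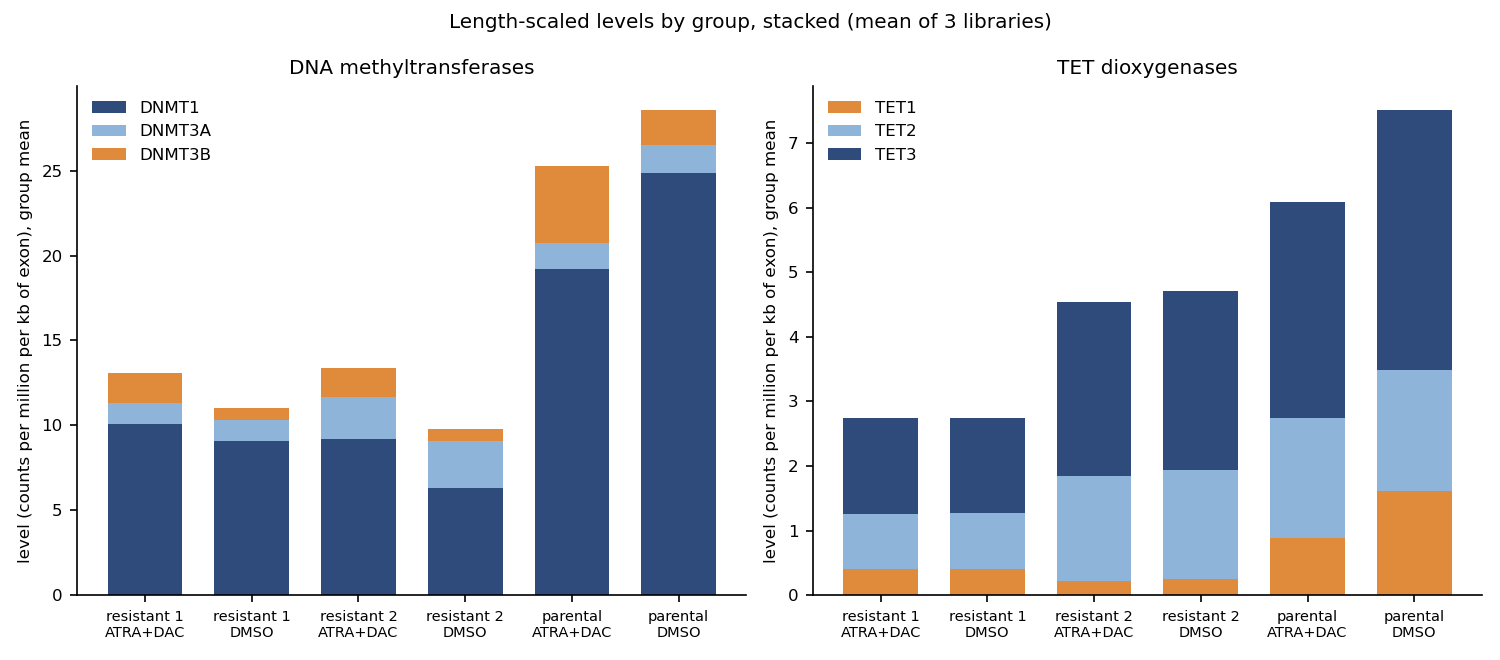
Stacked group means of length-scaled levels (y axis, CPM per kilobase of exon, from 0) of DNMT1, DNMT3A and DNMT3B (left) and of TET1, TET2 and TET3 (right) in the 6 groups (x axis), ATRA+DAC left of DMSO. DNMT1 is the largest part of each DNMT bar, between 64.5% and 87.0% of the family sum, and the TET1 part is smallest in resistant 2.

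Finally, the genes most like 4 of the members were listed by Pearson's r of log2(CPM + 1) over the 18 libraries, among 11079 genes with at least 5 CPM on average. The libraries fall into 6 groups, so r mostly describes the group means. DNMT1 was most like MCM7 (r = 0.996), a subunit of the replicative helicase, followed by CYREN (0.989), CDCA8 (0.988) and SKA3 (0.988). MCM7 averaged 121.1 ± 0.352 CPM with ATRA+DAC, against 115 ± 8.74 CPM with DMSO, in resistant 1, 104 ± 16.8 against 66.7 ± 19.1 CPM in resistant 2, and 303 ± 7.06 against 420.1 ± 52.2 CPM in parental cells. DNMT3B was most like E2F7 (0.970), an atypical E2F factor, and HYLS1 (0.964). TET1 was most like BAZ1B (0.980) and SRPK1 (0.979), and DNMT3A was most like the pseudogene ALG1L13P (0.982) and GPC6 (0.978).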

How the data were processed

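RNA-seq libraries were made from 18 NCI-H460 cultures with RNeasy columns, DNase and the TruSeq stranded mRNA kit, per the labels' protocols. Per the submitters' processing notes, the tools were FastQC, MultiQC, STAR, featureCounts and DESeq2, on GRCh38 (hg38). The sources used here give neither versions nor the counting strand, so reads of antisense neighbours may be mixed.

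The authors deposited separate tables for the treatments, normalized apart from each other. The deposited DMSO table holds normalized counts (a signal per gene), of which 100% of 263574 values above 0 came out as whole reads within 0.01. The deposited ATRA+DAC table holds normalized counts too, but its values of 1 or more had lost their decimal points. These were restored per gene as the powers of 10 most likely to give whole reads at a plausible level, and used where the posterior reached 0.99. Levels near the same population's DMSO mean were favoured. Whether strongly responding genes were left out more often, which would alter the shares of all genes called, was not tested. Of 25185 genes at the filter, 20537 (81.5%) were restored and 4648 left out (52.2% restored at means under 30, 96.7% from 1000). All 10 members were restored, at posteriors of 0.996 (DNMT3B) and higher. On the DMSO table with its points removed, 4 of 15520 restored genes were wrong. The method's spreads came from that table, and the levels favoured in this check came from the restored ATRA+DAC values. This is therefore no independent error rate.

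Tests within a table used limma 3.58.1 (trend, R 4.3.3) on log2 of the normalized count plus 1, keeping genes that reached 10 normalized counts in 3 or more of the 9 libraries (21643 genes with DMSO, 20537 with ATRA+DAC). Responses were tested on log2(CPM + 1) of the recovered reads, TMM over 18 libraries (edgeR 4.0.16), 20667 genes. P-values were adjusted by Benjamini-Hochberg over all genes. Fold changes on these scales understate those of low genes. On simulated data, resistant 1 against parental (21643 genes) found 28.4%, 74.6% and 100% of 1.5-fold, 2-fold and 4-fold changes, with 4.26% false calls. The parental response (20667 genes) found 55.2%, 85.1% and 100%, with 4.19%. The simulation changed few genes, none at the lowest levels, whereas 55.9% and 66.0% of all genes were called in the data. Its rates therefore do not describe the tests made here. Replicate libraries were not duplicates: their chi-square over genes, divided by its degrees of freedom, was 8.79 to 224.9.

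Same-numbered libraries deviated together, with every correlation over 0.1, between treatments in resistant 1 (0.38 to 0.86) and resistant 2 (0.75 to 0.85). They also did so between these populations with DMSO (0.15 to 0.50), and not in comparisons with parental cells. Some differently numbered libraries correlated more. Resistant 1 DMSO replicate 2 had 0.49 with ATRA+DAC replicate 1, against 0.38 with replicate 2. With DMSO, resistant 1 replicate 1 had 0.25 with resistant 2 replicate 2, against 0.15 with replicate 1. The pairing is read from the data and is less clear for these replicates. The members and gene lists were chosen with earlier results of these data known. From each list, up to 3 called genes by size of change against parental cells with DMSO and a mean of 10 normalized counts or more could be named, in all comparisons, and for DNMT1, DNMT3A, DNMT3B and TET1 the most similar genes were listed. Alternatives were edgeR and DESeq2 (1.42.0) on reads, other scalings, pseudocounts and filters, a replicate block, the 2 compared groups alone and leaving out each library. Gene positions and lengths are from GENCODE 29 and promoters from RefSeq (GRCh38.p14). The values of 1 listed gene are not reported here.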

Additional observations from a re-analysis of the deposited data

Results flagged for a closer look

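The response to ATRA+DAC of some members differed between a resistant population and parental cells in the test of the difference itself (limma on log2(CPM + 1), resistant minus parental). DNMT1 differed by 0.51 in resistant 1 (0.15 there and -0.36 in parental cells) and by 0.91 in resistant 2 (0.55 there), so the direction of the fitted response was opposite in resistant 2 and parental cells. TET1 differed by 0.82 in resistant 1 and 0.64 in resistant 2, where its own response did not pass in either, beside -0.80 in parental cells. TET3 differed by 0.28 in resistant 1 and 0.22 in resistant 2, where its own response did not pass in either, beside -0.26 in parental cells. HELLS differed by 0.65 in resistant 2. DNMT3L differed by -0.49 in resistant 1 and -0.51 in resistant 2; with almost no read outside treated parental cells, these fitted values are no bound, and neither was called by edgeR (adjusted p = 1 in both) or DESeq2 (0.58 and 0.37). Causes were not tested.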

How the results depend on the processing

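The comparisons with parental cells within a treatment and between resistant populations kept their counts of called members within 1.5 times under every alternative run (edgeR, DESeq2, TMM rescaling, pseudocounts of 0.5 and 5, no filter or a filter at 50, compared groups alone, replicate block, each library left out). Of all recomputed counts, 211 stayed so and 24 moved. Counts here include DNMT3L where it was tested, although its calls are not counted as support. Without it, the main fits had 1 member higher and 3 lower for the parental response. For the response differences they had 3 higher in resistant 1 and 4 in resistant 2, with 0 lower in both. Against treated parental cells, 9 were lower in resistant 1, and 1 was higher and 6 were lower in resistant 2. Members called for the resistant 1 response were 2, but 1 with no filter, 5 in that population's 6 libraries alone with the replicate block (an alternative chosen after seeing the data), and 1 to 3 when leaving out a library (1 without any of resistant 1 DMSO replicates 1 and 2 and its ATRA+DAC replicates). For the resistant 2 response they were 3, but 5 in its 6 libraries alone with the block, and 3 to 4 without a library. The share of all genes called rose as well in these 6-library fits. It was 48.7% in resistant 1 and 28.6% in resistant 2, against 27.7% and 17.9% in the main fits. For the parental response they were 5, and 3 to 5 without a library (3 without ATRA+DAC replicate 2 or 3). For the response of resistant 1 minus parental they were 4, but 2 by edgeR, and 2 to 4 without a library (2 without parental ATRA+DAC replicate 2 or 3). For the response of resistant 2 minus parental they were 5, but 1 by edgeR, 1 by DESeq2 and 3 with DESeq2 size factors, and 1 to 5 without a library (1 without parental ATRA+DAC replicate 1, 2 without parental ATRA+DAC replicate 2 or 3 or resistant 2 DMSO replicate 1 or ATRA+DAC replicate 2, 3 without any parental DMSO replicate). The cause was not tested. In the 18-library fits the replicate block gave 3 called members for the resistant 1 response (2 higher, 1 lower), through HELLS; it changed no other call. For comparisons with parental cells, same-numbered libraries did not deviate together (correlations down to -0.67), and with the block 8 and 7 members were called in resistant 1 and resistant 2 with DMSO.

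Signs reversed only for differences near 0 that did not pass under any alternative. With other tools or settings these were, on the log2 scale, DNMT3B between the treated resistant populations (0.0057 by edgeR, 0.010 by DESeq2), UHRF2 (0.048, 0.037 and 0.035) and TET2 (0.071, 0.059 and 0.061) in the parental response by edgeR, DESeq2 and DESeq2 size factors, DNMT3B for resistant 1 minus parental (0.015 by edgeR, 0.045 by DESeq2, 0.076 at a pseudocount of 0.1) and for resistant 2 minus parental (-0.070 with DESeq2 size factors). Without a library, UHRF2 with DMSO ranged between -0.12 and 0.062 (resistant 1 minus parental), -0.054 and 0.24 (resistant 2 minus parental) and -0.28 and 0.022 (resistant 1 minus resistant 2), with ATRA+DAC between -0.11 and 0.072 (resistant 2 minus parental), and in the parental response between -0.091 and 0.042. DNMT3B ranged between -0.072 and 0.19 (resistant 1 minus resistant 2, DMSO), -0.13 and 0.13 (the same, ATRA+DAC), -0.13 and 0.080 (response of resistant 1 minus parental) and -0.085 and 0.11 (response of resistant 2 minus parental). In the resistant 1 response, DNMT3A ranged between -0.037 and 0.063, TET1 between -0.095 and 0.12 and TET3 between -0.0048 and 0.054. In the resistant 2 response, TET2 ranged between -0.11 and 0.0045 and TET3 between -0.086 and 0.0016, and in the parental response TET2 between -0.079 and 0.062. For response differences, UHRF1 ranged between -0.27 and 0.21 and TET2 between -0.10 and 0.039 (resistant 1 minus parental), and DNMT3A between -0.11 and 0.036 and TET2 between -0.11 and 0.030 (resistant 2 minus parental).

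Without a filter the median of all genes with ATRA+DAC shifted to -0.11 (resistant 1 minus parental) and -0.17 (resistant 2 minus parental). Of the members, DNMT3L is limited by depth. Genes at low levels are under-represented with ATRA+DAC, where fewer could be restored. Among the listed genes, MBD3, MAT1A, MCM3, CDC6, DAZL, SYCP3 and TEX14 had no tested value with ATRA+DAC, DPPA3, DDX4 and TDRD1 none with DMSO, and MAEL, ASZ1, MOV10L1, BRDT and SLC25A31 none with either.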

Other observations

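Several partners of the members changed with ATRA+DAC in parental cells. CDCA7 averaged 57.0 ± 0.845 CPM with ATRA+DAC, against 148.1 ± 11.05 CPM with DMSO (log2 -1.36, adjusted p = 2.3e-07), and NEIL3 63.0 ± 3.37 CPM against 142 ± 12.7 CPM (-1.16, adjusted p = 5.1e-08). NEIL1 rose, to 5.06 ± 0.220 CPM with ATRA+DAC, against 2.13 ± 0.303 CPM with DMSO (0.96, adjusted p = 6.7e-07). It also rose in resistant 1, to 1.85 ± 0.197 CPM against 0.871 ± 0.0870 CPM (0.61, adjusted p = 0.00049). In resistant 2 it rose to 7.28 ± 0.0232 CPM against 5.25 ± 0.962 CPM (0.42, adjusted p = 0.012). At levels this low, log2(CPM + 1) understates the change, most in resistant 1, so the sizes are not comparable between populations. Of 8 genes of S-adenosylmethionine supply, 1 was higher and 6 were lower in parental cells, where 33.7% and 32.3% of all genes were called, with MTAP at -0.75 and MTR at -0.57 (adjusted p = 3.5e-06 and 2.2e-05), while 1 was higher and 1 lower in resistant 1 (15.2% and 12.5% of all genes) and 1 higher and 0 lower in resistant 2 (10.2% and 7.69%). AHCYL1 was higher after treatment in resistant 1 (0.57, adjusted p = 0.00011) and resistant 2 (0.34, adjusted p = 0.011) and lower in parental cells (-0.33, adjusted p = 0.0031).

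With ATRA+DAC, 6 of 7 methyl-CpG readers were higher in resistant 2 than in parental cells and 0 lower, where 37.3% and 35.5% of all genes were called. In resistant 1, 4 were higher and 1 lower, where 34.3% and 33.0% were called. ZBTB38 had the largest difference of these in resistant 2 (log2 1.46, adjusted p = 3.9e-08) and was 0.69 in resistant 1 (adjusted p = 2.8e-05). In parental cells ZBTB38 fell with treatment (-0.57, adjusted p = 0.00014).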
